A study of Mus musculus with 20 samples.

Results

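Transcripts of 10 circadian clock genes were followed in the quadriceps of aged mice after an injection of stem cell secretome or saline. The members were chosen by name: Per1, Per2, Per3, Arntl, Clock, Cry1, Cry2, Nr1d1, Nr1d2 and Dbp, each matched to its Ensembl identifier, and they make up 10 of the 55416 genes counted. All 20 mice were wild-type (WT) C57BL/6J males, 26 to 28 months old. In each, the quadriceps received a single intramuscular injection of 50 µL, of saline in 10 control mice and of the secretome product in 10 others. The study asked how the muscle transcriptome responded shortly after the injection, and it collected the injected muscle after 3 h, from mice fasted for 4 h. Neither the labels nor the methods give the clock time of injection or collection, the order of the mice or their sequencing batches.

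The mammalian clock is a feedback loop of transcription that runs in most cells, skeletal muscle fibres included. BMAL1, encoded by Arntl, pairs with CLOCK and activates genes that carry E-box sequences, among them the Per, Cry and Nr1d genes and Dbp, and PER and CRY proteins in turn repress that pair. REV-ERB proteins, encoded by Nr1d1 and Nr1d2, repress Arntl and Clock, while DBP activates genes that carry D-box sequences, so in a sampled tissue the levels of these transcripts move with the time of day.

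Counts were available for every member in every muscle, from 128 counts for Cry1 to 3337 for Nr1d1. The libraries held 13286983 to 22987237 counts on genes, and values are given as CPM, counts scaled for library size with the trimmed mean of M values. The labels number the libraries, with control muscles 1 to 10 as libraries 1 to 10 and secretome-treated muscles 1 to 10 as libraries 11 to 20. Earlier results of these counts had shown that Ttn, which encodes titin, took 7.02% to 11.03% of libraries 1 to 5, 16.4% to 21.1% of libraries 6 to 15 and 14.2% to 14.7% of libraries 16 to 20. Libraries 1 to 5 were all controls and libraries 16 to 20 all secretome-treated, so only libraries 6 to 15 hold both treatments, with 5 muscles each. The labels call these ranges no batch, and between the outer ranges library number and treatment cannot be told apart. All 5 fibre markers (Ckm, Acta1, Myh4, Mylpf and Tnnt3) were present, with a summed level of 53460 to 115400 CPM per muscle. In bulk muscle, fewer cells of a type and less RNA per cell cannot be told apart.

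The promoters of the loop's genes differ in the clock sequences they hold, and the stretches with a match are shown because the transcripts below are compared by those roles. RefSeq windows of 250 bases before to 50 after the annotated start (build GRCm38.p6) were found for 9 of the 10 members, all but Per2. On both strands they were searched for the E-box CACGTG, the D-box TTATGTAA, the core of the ROR and REV-ERB element (TAGGTCA or TGGGTCA) and the cAMP response element TGACGTCA. Each stretch is written 5′ to 3′ on the strand of its gene, with the matched letters in capitals.
Per1 (chr11:69098753-69098818, plus strand): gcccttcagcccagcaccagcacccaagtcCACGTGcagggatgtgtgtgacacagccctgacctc
Cry1 (chr10:85185079-85185144, minus strand): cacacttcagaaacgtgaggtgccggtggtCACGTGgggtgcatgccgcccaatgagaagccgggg
Per3 (chr4:151044786-151044900, minus strand): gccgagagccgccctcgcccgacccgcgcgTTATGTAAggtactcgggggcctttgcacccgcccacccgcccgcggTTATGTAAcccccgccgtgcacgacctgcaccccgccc
Arntl (chr7:113207531-113207557, plus strand): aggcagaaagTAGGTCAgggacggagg
The E-box lay 166 bases before the start of Per1 and 60 before that of Cry1, and 7.15% of 32851 promoter windows held one. The Per3 window held the D-box at 205 and at 158 bases before the start, a sequence found in 0.938% of windows. The REV-ERB element lay 30 bases after the second annotated start of Arntl, and 6.45% of windows held one. The cAMP response element was in no member's window and in 1.79% of all windows. No window of Clock, Cry2, Nr1d1, Nr1d2 or Dbp held a match, and neither did the other window of Per1 and that of Arntl. A match describes these letters only, and elements outside the window were not searched.

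Per length of merged exons, the repressor Nr1d1 had the highest level of the 10 in control muscle, 42.7 ± 9.23 CPM per kilobase (mean ± SD, n = 10), and Arntl had the lowest, 3.34 ± 1.10. Dbp had 26.6 ± 9.32, Nr1d2 22.6 ± 3.87, Per1 15.7 ± 3.82 and Cry2 9.94 ± 1.49 CPM per kilobase. Per3 had 4.87 ± 0.872, Per2 3.93 ± 0.626, Clock 3.62 ± 1.01 and Cry1 3.47 ± 0.650. The ranges over control muscles overlapped between each pair of neighbours in this order other than Cry2 and Per3. The genes also differed in how far they varied from muscle to muscle. Over all 20 muscles, the highest CPM was 4.01 times the lowest for Dbp, 2.99 times for Arntl and 2.83 times for Clock, but 1.67 times for Cry2 and 1.73 times for Nr1d2. Nr1d1, Dbp, Arntl and Cry2 share exon sequence with a gene on the opposite strand (Thra, Sphk2, Gm45355 and D930015M05Rik in GENCODE M21). The library kit keeps strand, but the strand setting of the counting is not given in the sources used here, so these 4 values are less certain. Gm45355 had 0 counts in all 20 libraries and D930015M05Rik at most 0.0624 CPM. Thra, which overlaps Nr1d1, had 38.9 to 79.0 CPM in controls and 44.8 to 72.8 CPM after secretome. Sphk2, which overlaps Dbp, had 13.8 to 30.1 CPM in controls and 11.3 to 22.3 CPM after secretome. Their part in the values of Nr1d1 and Dbp was not tested.

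**Figure D1:**
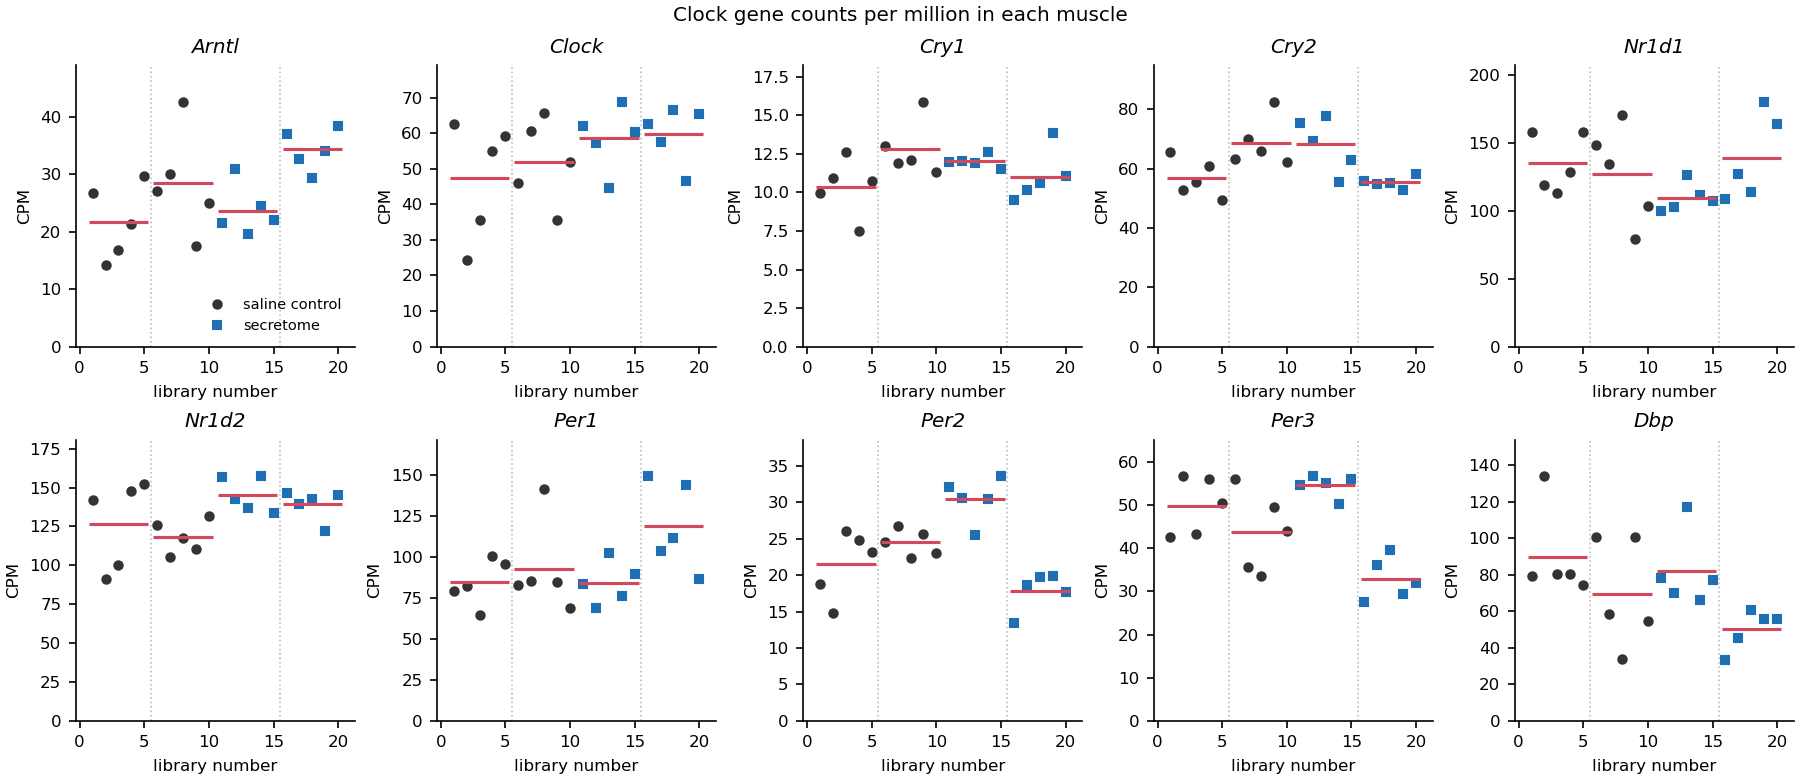
CPM (vertical axis from 0) of the 10 clock genes in each muscle by library number (horizontal axis), with saline controls as black circles and secretome-treated muscles as blue squares. Red lines are means of the 4 runs of 5 muscles and dotted lines divide libraries 1 to 5, 6 to 15 and 16 to 20. Per2 and Per3 in libraries 16 to 20 lie below all of libraries 11 to 15.

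Secretome-treated muscle was first compared with saline control over all 10 mice of each group. None of the 10 clock genes passed a 5% false discovery rate in edgeR's quasi-likelihood test, in which 0.00691% of the 14471 genes tested passed (1 gene, Plxnb2). DESeq2 and limma's voom also called 0 members. At an unadjusted p under 0.05 there was 1 member, Nr1d2, against 15.7% of all genes tested. The 10 log2 fold changes lay between -0.27 for Dbp and 0.25 for Clock, 5 above and 5 below 0, with a median of 0.03 beside -0.03 over all genes tested.
Nr1d2, the second REV-ERB gene, ranged from 91.1 to 152 CPM in control muscle (median 122) and from 122 to 157 CPM in secretome-treated muscle (median 143). The groups overlapped, and the lowest values belonged to controls 2 and 3. On the log2 scale this was a difference of 0.22 (95% interval 0.03 to 0.41, adjusted p = 0.259). Its paralog Nr1d1 ranged from 79.0 to 171 CPM in controls and from 99.9 to 180 CPM after secretome (log2 fold change -0.08, 95% interval -0.35 to 0.19).
Of the activators, Arntl ranged from 14.2 to 42.6 CPM (median 25.9) in controls and from 19.6 to 38.5 CPM (median 30.1) after secretome. Clock ranged from 24.3 to 65.8 CPM (median 53.5) and from 44.5 to 68.8 CPM (median 61.2). For both genes the secretome-treated values fell largely inside the range of the controls. The 95% intervals of the log2 fold change ran from -0.14 to 0.56 for Arntl and from -0.04 to 0.55 for Clock.
Among the repressors of the PER and CRY families, Per1 had 88.7 ± 21.5 CPM in control and 102 ± 27.0 CPM after secretome (mean ± SD, n = 10 each). Per2 had 23.0 ± 3.67 and 24.2 ± 7.15 CPM, and Per3 had 46.8 ± 8.38 and 43.8 ± 12.04 CPM. By SD, Per2 and Per3 varied more among secretome-treated muscles than among controls, which was not tested. Cry1 (11.6 ± 2.17 and 11.5 ± 1.27 CPM) and Cry2 (62.8 ± 9.40 and 61.8 ± 9.11 CPM) were the closest to 0, with 95% intervals of the log2 fold change of -0.23 to 0.21 and -0.22 to 0.17. Dbp, the output regulator, had 79.6 ± 27.9 CPM in control and 66.0 ± 22.7 CPM in secretome-treated muscle, and its interval was the widest, from -0.71 to 0.16.

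Within libraries 6 to 15, where 5 control and 5 secretome-treated muscles share the range of Ttn share, the differences of several genes had another sign. In this set 0% of the 14469 genes tested passed in edgeR, and 0 of the 10 members did, also in DESeq2. At an unadjusted p under 0.05 there were 3 members, Per2, Nr1d2 and Per3, against 9.95% of all genes, and all 3 had the higher mean after secretome.
Nr1d2 measured 126, 105, 118, 111 and 132 CPM in controls 6 to 10 and 157, 143, 137, 157 and 134 CPM in secretome-treated muscles 1 to 5. These values did not overlap, as for 1.91% of all genes tested in this set, a difference of 0.31 on the log2 scale (95% interval 0.10 to 0.52, adjusted p = 0.433).
Per2 measured 24.5, 26.8, 22.4, 25.6 and 23.1 CPM in controls and 32.1, 30.6, 25.5, 30.5 and 33.6 CPM after secretome. Secretome-treated muscle 3 lay among the controls, and the difference was 0.33 on the log2 scale (95% interval 0.11 to 0.54, adjusted p = 0.416). Per3 measured 56.1, 35.7, 33.5, 49.6 and 44.0 CPM in controls and 54.7, 56.7, 55.2, 50.4 and 56.1 CPM after secretome. The secretome-treated muscles were close together and the controls spread below them, with control 6 as high as the treated ones (log2 difference 0.33, 95% interval 0.05 to 0.61, adjusted p = 0.464). For Arntl the difference was -0.26 and for Dbp 0.24 on the log2 scale, each opposite in sign to its value over all 20 muscles, and neither was larger than its spread (95% intervals -0.69 to 0.18 and -0.35 to 0.84). Both sizes depended on single muscles. Leaving out 1 muscle gave -0.38 to -0.0642 for Arntl, the latter without control 8, and 0.0679 to 0.41 for Dbp, lowest without secretome-treated muscle 3.

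**Figure D2:**
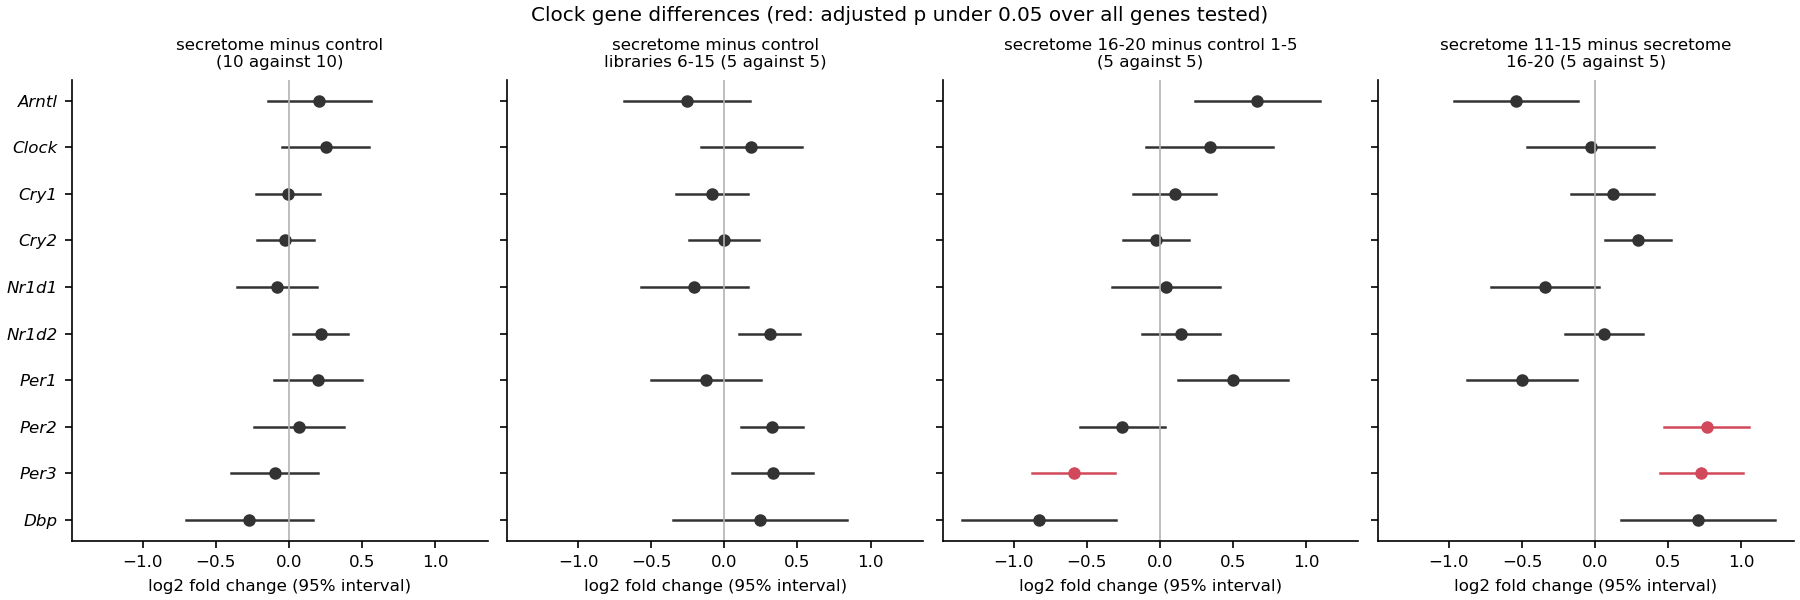
Log2 fold changes (points, horizontal axis) of the 10 clock genes in 4 comparisons, with 95% intervals as lines. Red marks an adjusted p under 0.05 over all genes tested, which holds for Per3 in the third panel and for Per2 and Per3 in the fourth.

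The outer ranges set secretome-treated muscles 6 to 10 (libraries 16 to 20) against controls 1 to 5 (libraries 1 to 5), and there Per3 and Dbp had lower and Arntl and Per1 higher mean values in libraries 16 to 20. In edgeR, 3.25% of the 15527 genes tested passed the 5% false discovery rate, and 1 member did, Per3, which was lower in libraries 16 to 20. Per3 measured 42.6, 56.7, 43.3, 56.2 and 50.5 CPM in libraries 1 to 5 and 27.5, 36.2, 39.7, 29.3 and 31.9 CPM in libraries 16 to 20. No value overlapped, for a log2 fold change of -0.59 with a standard error of 0.136 (adjusted p = 0.0254). Left out in turn, control 4 or secretome-treated muscle 6, 9 or 10 took the adjusted p over the threshold, to 0.0552, 0.0745, 0.0707 and 0.0578.
Dbp did not overlap either, at 79.3, 134, 80.2, 80.3 and 74.2 CPM in libraries 1 to 5 and 33.4, 45.4, 60.7, 55.5 and 55.6 CPM in libraries 16 to 20. This was -0.83 on the log2 scale, with a standard error of 0.254 (adjusted p = 0.0738). These 2 of 10 members without overlap stand beside 4.70% of all genes.
Arntl had the opposite sign, with 26.7, 14.2, 16.8, 21.3 and 29.7 CPM in libraries 1 to 5 and 37.1, 32.7, 29.3, 34.1 and 38.5 CPM in libraries 16 to 20. The ranges touched at the highest control, control 5, with 0.67 on the log2 scale and a standard error of 0.205 (adjusted p = 0.0738). Without control 5 the adjusted p of Arntl was 0.0320 and 2 members passed, beside 5.23% of all genes in that fit. DESeq2 called 3 members here, Per3, Arntl and Dbp, with adjusted p of 0.00318, 0.0293 and 0.0273, and it called 7.58% of all genes. Per1 had the higher mean in libraries 16 to 20 as well (119 ± 26.9 against 84.6 ± 14.3 CPM, log2 fold change 0.50, adjusted p = 0.121), while Nr1d1, Cry1 and Cry2 had log2 fold changes between -0.03 and 0.10.
Other genes moved with this comparison as well. Of the 5 fibre markers, 4 had log2 fold changes above 0 and 1 below, with a median of 0.21, and only 1 passed in edgeR. This was the myosin gene Myh4 (log2 fold change 0.77, adjusted p = 0.0309), with higher values in libraries 16 to 20. Of 9 glucocorticoid target genes, 1 also passed with higher values there, Fkbp5. Ttn was also higher there (log2 fold change 0.87). The ranges were drawn from its share, so no test is given for it. The summed level of 3 fibroblast markers (Pdgfra, Col1a1 and Dcn) was 406 to 691 CPM in libraries 1 to 5 and 274 to 437 CPM in libraries 16 to 20, with a median log2 fold change of -0.60. For 3 adipocyte markers the sum was 43.7 to 223 CPM and 47.6 to 76.8 CPM, with a median of -0.81, and 0 of these 6 markers passed. Their part in the differences of Per3, Dbp and Arntl was not tested.

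With the treatment held constant, the secretome-treated muscles of the 2 ranges differed in Per2 and Per3. Both passed in edgeR at an adjusted p of 0.0489, as did 0.0773% of the 15527 genes tested, and by p they ranked 4 and 6 among all genes. Per2 measured 32.1, 30.6, 25.5, 30.5 and 33.6 CPM in libraries 11 to 15 and 13.4, 18.7, 19.8, 19.9 and 17.6 CPM in libraries 16 to 20. All of the first 5 muscles lay above all of the last 5 (log2 fold change 0.76, standard error 0.139). Per3 was also apart, with 50.4 to 56.7 CPM in libraries 11 to 15 and 27.5 to 39.7 CPM in libraries 16 to 20 (log2 fold change 0.73, standard error 0.137).
These calls sit at the threshold and depend on single muscles. Leaving out 1 of the 10 muscles, Per2 passed in 3 of 10 fits and Per3 in 2 of 10, with adjusted p from 0.0384 to 0.176 and from 0.0471 to 0.176, while the log2 fold changes stayed between 0.68 and 0.83 and between 0.67 and 0.80. Both calls were lost without secretome-treated muscle 1, 2, 3, 5, 6, 7 or 10 (adjusted p of Per3 0.123, 0.142, 0.104, 0.121, 0.176, 0.0657 and 0.0979), and that of Per3 also without muscle 9 (0.0504).
Dbp was the third member without overlap, at 66.3 to 117 CPM against 33.4 to 60.7 CPM, beside 2.69% of all genes (0.70 on the log2 scale, standard error 0.253, adjusted p = 0.354). Arntl had the opposite sign, with 21.5, 30.9, 19.6, 24.5 and 22.0 CPM in libraries 11 to 15, of which only secretome-treated muscle 2 reached the range of libraries 16 to 20 (-0.54 on the log2 scale, standard error 0.205, adjusted p = 0.378). Per1 had 84.3 ± 12.9 CPM in libraries 11 to 15 and 119 ± 26.9 CPM in libraries 16 to 20 (mean ± SD, n = 5 each; log2 fold change -0.50, adjusted p = 0.361). In all, 6 of 10 members had an unadjusted p under 0.05, Per2, Per3, Dbp and Cry2 with the higher and Arntl and Per1 with the lower mean in libraries 11 to 15, beside 8.87% of all genes.
Other measures moved along with this difference. The ranges were drawn from the Ttn share, which was 17.8% to 20.7% in libraries 11 to 15. In libraries 16 to 20 it was 14.2% to 14.7%. The summed level of the 3 fibroblast markers was 204 to 295 CPM against 274 to 437 CPM, that of 5 macrophage markers 25.5 to 48.3 CPM against 29.6 to 103 CPM, and none of the 8 was at 0 in all muscles of a range or passed the false discovery rate here. Their part in the result was not tested.

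Between the saline ranges, controls 6 to 10 against controls 1 to 5, 5.03% of the 15527 genes tested passed in edgeR but 0 of the 10 clock genes, also in DESeq2. At an unadjusted p under 0.05 there were 2 members beside 19.2% of all genes, Cry1 (12.8 ± 1.80 CPM in libraries 6 to 10 and 10.4 ± 1.87 CPM in libraries 1 to 5, adjusted p = 0.206) and Cry2 (68.8 ± 8.21 and 56.8 ± 6.44 CPM, adjusted p = 0.146). Arntl had a log2 fold change of 0.39 and Dbp of -0.36, and controls 2 and 8 stood at the ends of both genes. Control 2 had the lowest Arntl (14.2 CPM) and the highest Dbp (134 CPM) of the controls, and control 8 had the highest Arntl (42.6 CPM) and the lowest Dbp (34.1 CPM).
Averaged over both treatments, libraries 6 to 15 against the outer libraries gave 2 members past the false discovery rate, Per2 and Cry2, where 4.25% of all genes passed. Per2 had 27.5 ± 3.93 CPM in libraries 6 to 15 and 19.7 ± 4.04 CPM in the other 10 (0.48 on the log2 scale, standard error 0.0979, adjusted p = 0.00667). By treatment, the log2 fold change of Per2 in edgeR was 0.19 between the control ranges (standard error 0.138, adjusted p = 0.48). Between the secretome-treated ranges it was 0.76 (standard error 0.139, adjusted p = 0.0489). The averaged call of Per2 held whichever of the 20 muscles was left out. Cry2 had 68.5 ± 8.14 and 56.1 ± 4.55 CPM (0.29 on the log2 scale, standard error 0.0767, adjusted p = 0.0340) and passed in 10 of those 20 fits. It did not pass without control 3, 5, 7 or 9 or secretome-treated muscle 1, 2, 3, 6, 7 or 8, with adjusted p up to 0.0736. In the same comparison 2 of 3 fibroblast markers (Pdgfra and Dcn) and 2 of 5 macrophage markers (Csf1r and Mrc1) passed with lower values in libraries 6 to 15, and their part in the result was not tested.
Whether the secretome difference within libraries 6 to 15 differed from that between the outer ranges was tested by a contrast added after the data were seen. In edgeR 0 of 10 members and 0.0451% of all genes passed. At an unadjusted p under 0.05 there were 5 members, Per1, Per2, Per3, Arntl and Dbp, beside 10.9% of all genes. The largest differences between the 2 effects were 1.06 for Dbp (standard error 0.357, adjusted p = 0.265), -0.93 for Arntl (0.290, adjusted p = 0.219) and 0.91 for Per3 (0.192, adjusted p = 0.129) on the log2 scale. DESeq2 called 1 member, Per3, at an adjusted p of 0.00373, beside 1.39% of all genes.

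Across the 20 muscles, Arntl and Dbp moved against each other, while some other pairs of morning and evening genes rose together. Arntl and Clock, whose transcripts in mouse tissues peak around the end of the night, were paired with 6 genes that peak in the day or evening, Per1, Per2, Per3, Nr1d1, Nr1d2 and Dbp. Of the 12 pairs, 6 had an adjusted p under 0.05 for Pearson's r of log2 CPM (two-sided permutation test with 100000 resamples, Benjamini-Hochberg over the 12). No share over all genes was computed beside this count. By r with Arntl among 14414 tested genes, Nr1d1 stood at 1378 and Per1 at 1456 from the top. Many other genes thus had a higher r with Arntl than these 2, while Per3 at 14282 and Dbp at 14413 were near the bottom.
Arntl and Dbp had r = -0.83 and Spearman's rho = -0.84, both at p = 1e-05, the smallest that these permutations can give (adjusted p = 0.00012). Without the 2 muscles farthest from the median of Arntl r was -0.81, and within libraries 6 to 15 alone, with 10 muscles, it was -0.81 (permutation p = 0.00527, adjusted p = 0.0632). Taken as deviations from the means of the 4 runs of 5 muscles, r was -0.72 (permutation within runs, adjusted p = 0.0107). The sign was thus the same over all muscles, inside the range that holds both treatments and within runs.
Arntl and Per3 had r = -0.70 and rho = -0.64 (permutation test, adjusted p = 0.00264 for r). Its r was -0.77 without the 2 farthest muscles and -0.50 as deviations (adjusted p = 0.143), and within libraries 6 to 15 r was -0.64 (adjusted p = 0.152) but rho was -0.15 (permutation p = 0.682). Clock and Dbp had r = -0.64 and rho = -0.59 (adjusted p = 0.00636 for r). That r was -0.45 without the 2 farthest muscles, where it did not pass (adjusted p = 0.1004), -0.67 within libraries 6 to 15 (adjusted p = 0.135) and -0.68 as deviations (adjusted p = 0.0107).
The other 3 of the 6 pairs were positive. Clock and Nr1d2 had r = 0.76 and rho = 0.58 (adjusted p = 0.00168 for r), and r was 0.57 without the 2 farthest muscles, 0.39 within libraries 6 to 15 (adjusted p = 0.440) and 0.77 as deviations (adjusted p = 0.0236). Arntl and Nr1d1 had r = 0.55 (adjusted p = 0.0293) and rho = 0.49, which did not pass (adjusted p = 0.0618), with r = 0.66 as deviations (adjusted p = 0.0210). Arntl and Per1 had r = 0.54 (adjusted p = 0.0293) and rho = 0.50, which did not pass either (adjusted p = 0.0605). Within libraries 6 to 15, Arntl with Per1 had r = 0.37 (adjusted p = 0.440) but rho = -0.10. There Arntl with Nr1d1 had r = 0.73 (adjusted p = 0.1003). Without the 2 farthest muscles the r of Arntl with Per1 was 0.48 and did not pass (adjusted p = 0.0955), and as deviations it was 0.30 (adjusted p = 0.359). Each pair of values comes from the same libraries and shares their depth and scaling. Control 2, with the lowest Arntl and highest Dbp, had the highest scaling factor of the 20 libraries (1.214). Control 8, with the highest Arntl, had the lowest (0.8893), while secretome-treated muscle 6, with the lowest Dbp, had 0.952. The part of library composition and scaling in these correlations was not tested.

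**Figure D3:**
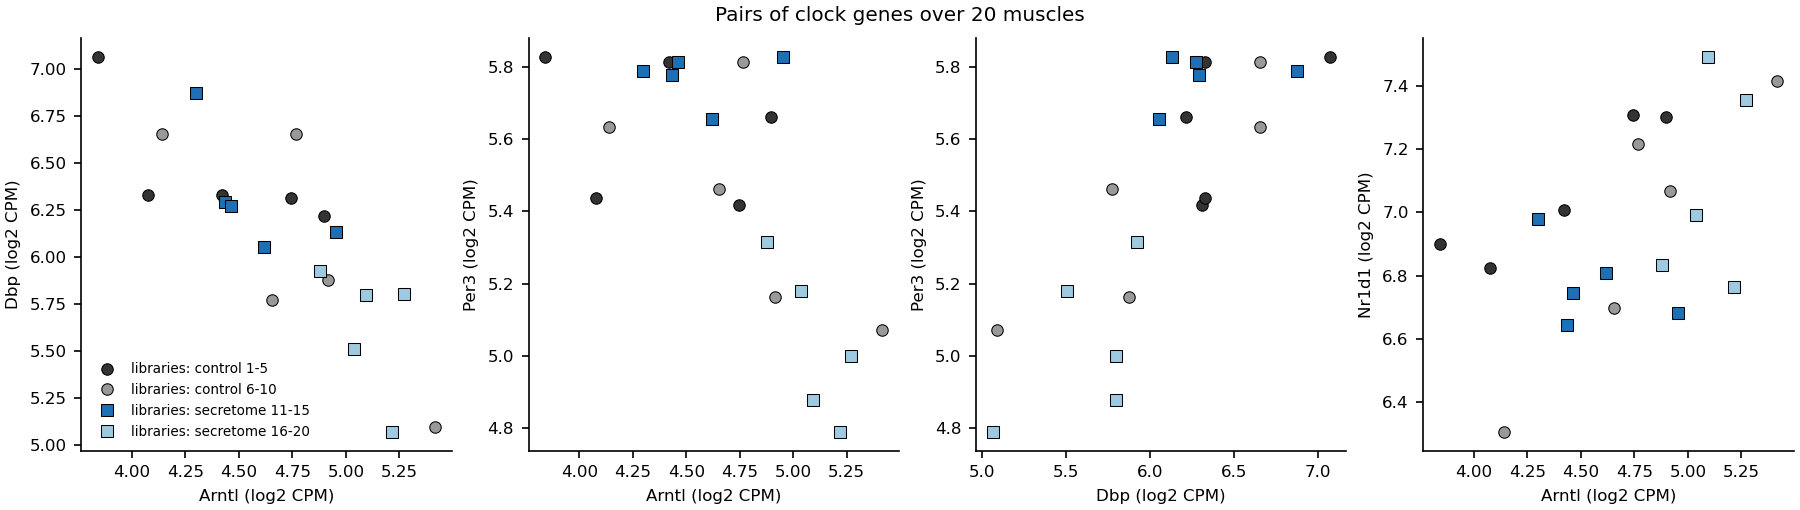
Log2 CPM of 4 pairs of clock genes in the 20 muscles, with control muscles as circles (libraries 1 to 5 dark, 6 to 10 grey) and secretome-treated muscles as squares (libraries 11 to 15 blue, 16 to 20 light). Dbp falls as Arntl rises (r = -0.83), Per3 falls as Arntl rises (r = -0.70) and rises with Dbp (r = 0.80), and Nr1d1 rises with Arntl (r = 0.55).

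Outside these 12 pairs, correlations between members are given as a description. Per3 and Dbp had r = 0.80, and Arntl and Clock had r = 0.73. Per2, which differed between the ranges, had r = 0.59 with Per3 over the 20 muscles and 0.11 as deviations from the run means. Cry1 with Arntl (r = -0.13) and Cry2 with Clock (r = -0.01) were near 0. Per1 had r = -0.60 with Per3 and -0.54 with Dbp, and its correlation with Arntl was positive.

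**Figure D4:**
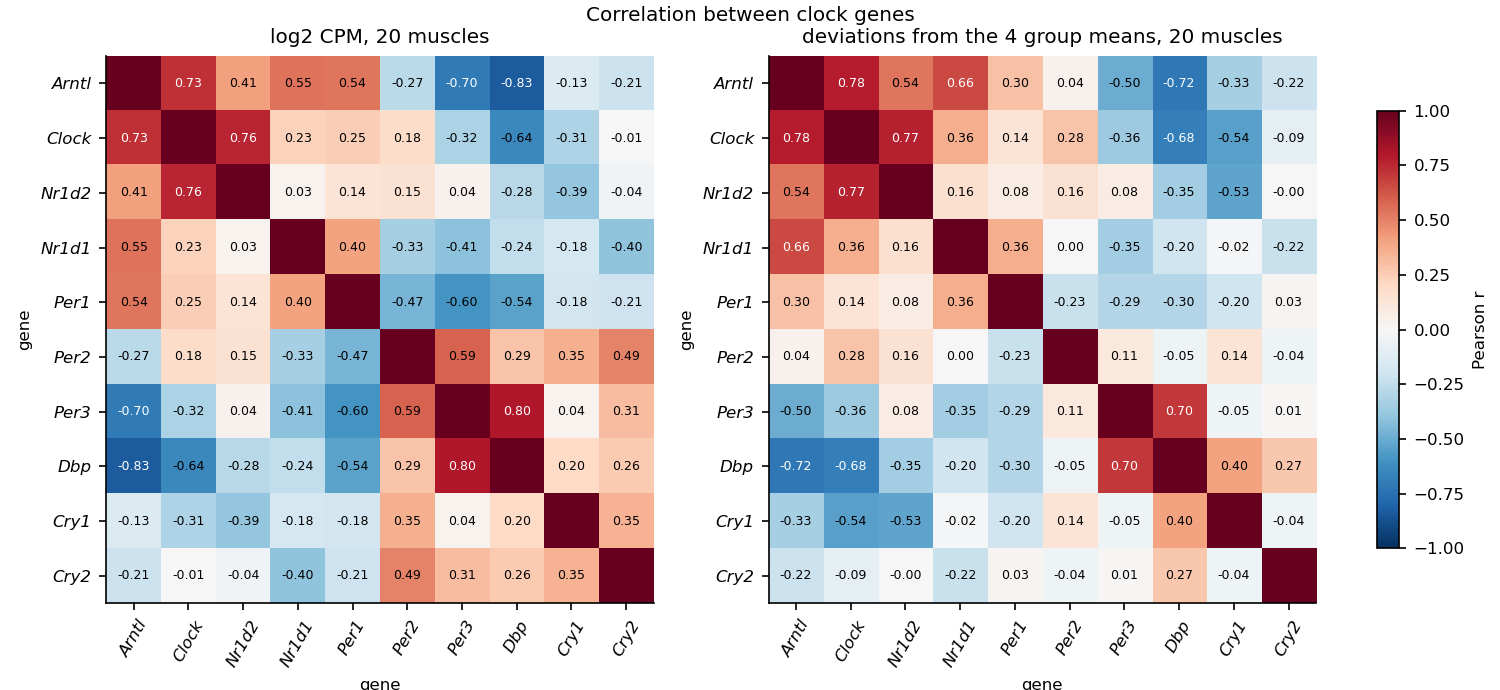
Pearson r between the 10 clock genes over 20 muscles, for log2 CPM (left) and for deviations from the means of the 4 runs of 5 muscles (right), with red for positive and blue for negative values and the value printed in each cell. Arntl with Dbp is -0.83 on the left and -0.72 on the right, and Per2 with Per3 is 0.59 and 0.11.

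Among 14414 tested genes with a symbol, ranked by the r of their log2 CPM with that of Dbp over the 20 muscles, Arntl stood last and Per3 was the fifth from the top. The other members lay between, Per2 at 3558, Cry2 at 3825, Cry1 at 4707, Nr1d1 at 10472, Nr1d2 at 10813, Per1 at 13525 and Clock at 14197. The 4 genes above Per3 were Eml3, a microtubule-associated protein (r = 0.86), Ccdc130 (0.82), B3galt4, a galactosyltransferase (0.82), and Krtcap3 (0.82). After Arntl, the lowest were Arhgap10 (-0.82), the elongation factor gene Ell2 (-0.81), Ppp2ca, the catalytic subunit of protein phosphatase 2A (-0.80), and the Z-disc gene Pdlim5 (-0.80). For Arntl the highest were Rab7, a GTPase of late endosomes (r = 0.91), Ubl4a (0.89), Rc3h1 (0.86), Lpin1, a phosphatidate phosphatase (0.85), and the COP9 signalosome subunit Cops8 (0.85). The lowest were Ccdc130 (-0.86), Dbp (-0.83), Donson (-0.82), Gm22009 (-0.82) and Prmt2 (-0.82). The other members ranked from Clock at 206 to Per3 at 14282, with Nr1d1 at 1378, Per1 at 1456, Nr1d2 at 2512, Cry1 at 8476, Cry2 at 9510 and Per2 at 10246. Many genes thus came close to the members by this measure, and no test is given for the ranks.

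Of 17 other clock genes, which cover partner activators, the ROR receptors, the PAR bZIP factors beside DBP and regulators of PER and CRY stability, 16 had enough counts to be tested and only Fbxl21 did not. None passed for secretome against control (1 had an unadjusted p under 0.05, beside 15.7% of all genes), and their median log2 fold change was 0.03. By p the first 3 were the activating receptor gene Rora (log2 fold change 0.31, adjusted p = 0.293), Rorb, with low counts, at 0.805 ± 0.282 CPM after secretome and 1.14 ± 0.678 CPM in controls, and Timeless, with 2.97 ± 1.04 CPM after secretome and 3.85 ± 1.48 CPM in controls.
Npas2, which encodes a partner of BMAL1 that can take the place of CLOCK, was the 1 gene of these 16 to pass in any comparison. It measured 3.90, 2.67, 3.66, 2.92 and 2.72 CPM in libraries 1 to 5 and 2.14, 4.33, 3.83, 1.94 and 1.86 CPM in libraries 6 to 10. In libraries 11 to 15 it measured 2.06, 1.18, 1.44, 1.12 and 1.31 CPM, and in libraries 16 to 20 3.51, 4.02, 3.64, 3.18 and 2.34 CPM. The 5 secretome-treated muscles of libraries 11 to 15 were below all of libraries 16 to 20, while controls 6 to 10 spread over both levels. Libraries 6 to 15 against the others gave -0.70 ± 0.180 on the log2 scale (estimate ± standard error, adjusted p = 0.0296), and libraries 11 to 15 against 16 to 20 gave -1.23 ± 0.260 (adjusted p = 0.0529). Its counts were low, from 18 to 85 per library. Npas2 and Arntl thus had the same sign in the comparison of the secretome-treated ranges, opposite to Per2, Per3 and Dbp. Nfil3, the repressor that binds the same D-box as DBP, was chosen after its values were seen. It had 26.2 ± 6.90 CPM in libraries 11 to 15 and 53.8 ± 15.6 CPM in libraries 16 to 20 (log2 fold change -1.05, adjusted p = 0.213).

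**Figure D5:**
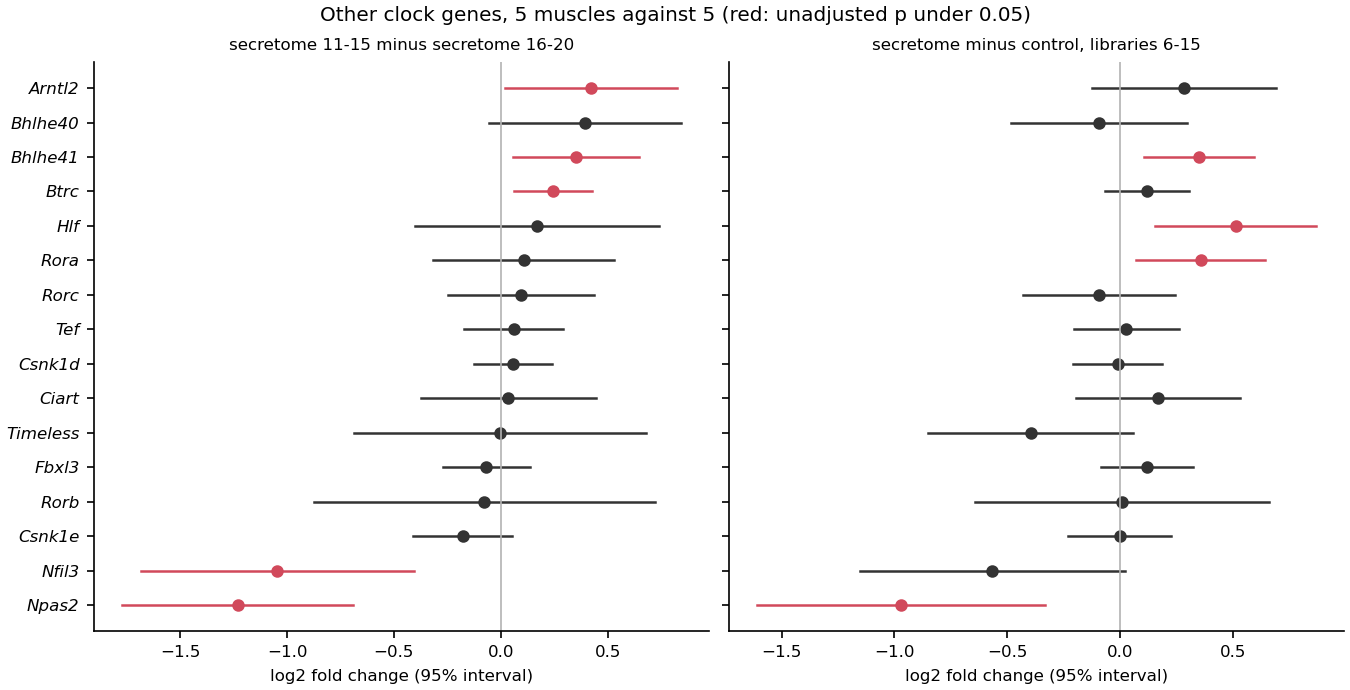
Log2 fold changes (points) with 95% intervals (lines) of 16 other clock genes for secretome-treated libraries 11 to 15 against 16 to 20 (left) and for secretome against control within libraries 6 to 15 (right), 5 muscles against 5 in each. Red marks an unadjusted p under 0.05, and Npas2 is the lowest on both sides, at -1.23 and -0.97.

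Genes downstream of the clock were compared through 9 cycling output genes, of which 0 passed in edgeR in any of the comparisons. For secretome against control, 1 had an unadjusted p under 0.05, beside 15.7% of all genes. This was Nampt, which encodes the rate-limiting enzyme of NAD salvage. It had 102 ± 27.8 CPM in control and 129 ± 26.1 CPM in secretome-treated muscle (log2 fold change 0.34, adjusted p = 0.287). Por, the electron donor of cytochromes P450, had a log2 fold change of -0.24 in that comparison (adjusted p = 0.423). Between libraries 6 to 15 and the others, Por had 22.3 ± 3.65 and 29.7 ± 8.57 CPM (log2 fold change -0.41, adjusted p = 0.0631), and Lonrf3 had a log2 fold change of 0.40 (adjusted p = 0.402).
The clock also responds to glucocorticoids, and 9 target genes of that hormone were followed. None passed for secretome against control, where Klf9 (log2 fold change 0.22, adjusted p = 0.281) and Ddit4 (0.65, adjusted p = 0.487) had the smallest p, nor for libraries 6 to 15 against the others, where Tsc22d3 (-0.16, adjusted p = 0.482) and Zbtb16 (-0.13, adjusted p = 0.649) did. Between the secretome-treated ranges all 9 had the lower fitted value in libraries 11 to 15, with a median log2 fold change of -0.39 beside -0.02 over all genes tested. Of these, 3 had an unadjusted p under 0.05 (Fkbp5, Tsc22d3 and Ddit4), beside 8.87% of all genes, and 0 passed the false discovery rate. Their summed level was 1045 to 1200 CPM in libraries 11 to 15 and 1330 to 1905 CPM in libraries 16 to 20, so it was lower where Per2 and Per3 were higher, and its part in their difference was not tested. Fkbp5, which encodes a co-chaperone of the glucocorticoid receptor and was chosen after its values were seen, had 35.9 ± 5.67 CPM in libraries 1 to 5, 67.5 ± 25.8 CPM in libraries 6 to 10, 44.6 ± 3.12 CPM in libraries 11 to 15 and 74.4 ± 35.4 CPM in libraries 16 to 20. It passed for libraries 6 to 10 against 1 to 5 (log2 fold change 0.92, adjusted p = 0.0421) and for libraries 16 to 20 against 1 to 5 (1.06, adjusted p = 0.0302).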

How the data were processed

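RNA from injected quadriceps of 20 mice was sequenced in pairs from stranded libraries. Per the submitters' processing notes, the tools were cutadapt 1.16, STAR 2.7.9a, featureCounts 1.6.3 and DESeq2 1.34.0, with genome build GRCm39; the annotation release and strand setting are not given in the sources used here. The authors deposited whole-number counts per gene without normalization, 1 column per muscle, and 0 columns were left unmatched. No 2 columns were identical.

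The extraction text in the labels names myotubes, while the tissue label and the methods name quadriceps. Members and ranges of library numbers, and all gene lists, were chosen with earlier results of these data known. Groups came from the labels, which do not name batches.

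Symbols and merged exon lengths came from GENCODE M21 (52083 of 55416 identifiers had a symbol). Counts were filtered with filterByExpr, scaled with TMM and tested with the robust quasi-likelihood test of edgeR 4.0.16 in R 4.3.3, with Benjamini-Hochberg adjustment over all genes tested at a 5% false discovery rate. Comparisons of secretome with control used a fit of the muscles compared, and those between ranges used 1 fit of 4 groups. The correlations used log2 CPM with a prior count of 2. Where mice are the replicates, p-values cover the spread between mice.

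Named genes were all members, other clock genes past the false discovery rate in any comparison and otherwise the 3 with the smallest p for secretome and for libraries 6 to 15 against the others, the 2 with the smallest p in those comparisons from the cycling output, glucocorticoid and immediate early lists, and the 5 genes with the highest and lowest r with Dbp and with Arntl. Alternatives were DESeq2 1.42.0, limma 3.58.1 (voom), RLE scaling, no filter, a term for the ranges, removal of each library's trend on gene length, a replicate block and leaving out each muscle. On simulated data with 200 genes changed by a factor of 2 among 14298, edgeR recovered 161 for secretome against control and called 6 unchanged genes. With 5 against 5 controls and 14467 genes it recovered 118 of 200. Smaller changes were not simulated, and the largest rise of a member for secretome against control was a factor of 1.19 (Clock). These recoveries therefore do not cover changes of the size seen in that comparison.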

Additional observations from a re-analysis of the deposited data

Results flagged for a closer look

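Within each group of 10 muscles and each run of 5, the highest and lowest value of each clock gene was compared with its neighbour on the log2 scale by Dixon's test. Of 60 sets of values, 2 had a muscle that stood apart, and chance gives about 1 in 20, or 3.0. Dbp in control 2 was 134 CPM, against 80.3 CPM in the next highest of controls 1 to 5, a gap of 0.867 of their whole range. Without control 2, the log2 fold change of Dbp for secretome against control was -0.16 in place of -0.27, and for libraries 16 to 20 against libraries 1 to 5 it was -0.64 in place of -0.83. Nr1d2 in secretome-treated muscle 9 was 122 CPM, against 139 CPM in the next lowest of libraries 16 to 20, a gap of 0.712 of their range. Without that muscle, the log2 fold change of Nr1d2 for secretome against control was 0.24 in place of 0.22.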

How the results depend on the processing

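Over all alternatives, 0 clock genes passed for secretome against control, within libraries 6 to 15 and between the control ranges, although DESeq2 raised the genes called for secretome against control from 1 to 213, within libraries 6 to 15 from 0 to 37, and in the comparison of secretome-treated ranges from 12 to 144. Leaving out single muscles gave 1 to 2 members for libraries 6 to 15 against the others, 0 to 2 between the secretome-treated ranges, 0 to 2 between the outer ranges, and 0 to 0 for the other comparisons. For libraries 6 to 15 against the others, 1 member passed without the filter on low counts and 1 with the length trend removed, where Cry2 had adjusted p of 0.116 and 0.0538. Between the secretome-treated ranges, 0 passed with RLE scaling and 0 with the length trend removed, where the adjusted p of Per2 was 0.0509 and 0.0519. Between the outer ranges DESeq2 gave 3 members beside 1125 of 14833 genes, and for the difference between the secretome effects 1 beside 180 of 12947. The number of correlated pairs was 5 to 7 over the alternatives. The cause of these changes was not tested.

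Signs turned in a few cases. With a term for the 3 ranges, the secretome log2 fold change was -0.27 for Arntl, 0.23 for Dbp, -0.14 for Per1 and 0.32 for Per3, none of which passed. That of Cry1 was 0.00632 with DESeq2, 0.000257 with RLE scaling, 0.00723 without the filter, 0.0256 with the length trend removed, 0.00409 with the replicate block and 0.0116 with voom. Clock in libraries 6 to 15 against the others was -0.00973 with the length trend removed. Without the 2 farthest muscles, r was -0.0415 for Arntl with Nr1d2, -0.126 for Clock with Per2 and -0.00857 for Clock with Nr1d1.

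Leaving out single muscles also turned some signs near 0. For secretome against control, log2 fold changes ran from -0.0649 to 0.0516 for Cry1 and from -0.0628 to 0.0274 for Cry2. Within libraries 6 to 15 they ran from -0.121 to 0.00394 for Cry1, from -0.0642 to 0.0705 for Cry2 and from -0.215 to 0.0821 for Per1. Between the control ranges they ran from -0.0271 to 0.26 for Clock, from -0.21 to 0.0464 for Nr1d1 and from -0.0668 to 0.23 for Per1. For libraries 6 to 15 against the others they ran from -0.0292 to 0.11 for Clock and from -0.0649 to 0.0219 for Nr1d2. Between the secretome-treated ranges Clock ran from -0.11 to 0.0646, and between the outer ranges Cry2 ran from -0.0690 to 0.0324 and Nr1d1 from -0.0656 to 0.12. The difference between the secretome effects ran from -0.045 to 0.0859 for Cry2.

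Same-numbered control and secretome-treated muscles did not deviate together (correlations of their deviations from the group means -0.24 to 0.22 over 10 pairs, 2 over 0.1). The deviations also hold the differences between ranges, so this check cannot exclude that the numbers pair the mice. With the replicate block 0 members and 0 genes passed for secretome against control.

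Every member had at least 128 counts in each muscle, and 10 or 5 mice per group limit the precision. Collection times and batches were not given, and the ranges were drawn from Ttn shares of these same libraries.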

Other observations

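Immediate early genes, which respond within minutes to activity and injury and can reset Per1 and Per2, were listed beside the clock genes. Of 9, 0 passed the false discovery rate in edgeR for secretome against control and 0 had an unadjusted p under 0.05, beside 15.7% of all genes. The smallest p values there belonged to Ier2 (5.85 ± 2.48 CPM after secretome and 7.98 ± 5.37 CPM in controls, adjusted p = 0.506) and to the orphan receptor gene Nr4a1 (159 ± 48.5 and 139 ± 54.2 CPM, adjusted p = 0.669). For libraries 6 to 15 against the others they belonged to Nr4a1 (125 ± 44.4 and 172 ± 48.2 CPM, log2 fold change -0.48, adjusted p = 0.150) and to the kinase gene Sik1 (72.4 ± 16.1 and 62.8 ± 19.2 CPM, adjusted p = 0.581).

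Markers of other cells in muscle were read in the same fits. For secretome against control, 0 of the markers of fibres, macrophages, neutrophils, endothelium, fibroblasts, adipocytes, Schwann cells and blood passed the false discovery rate. Before adjustment, 2 of 5 macrophage markers (Adgre1 and Csf1r) and 1 of 3 adipocyte markers (Cfd) had p under 0.05, all with lower values after secretome. Of all genes tested, 15.7% had such a p, 944 of them higher and 1333 lower after secretome. The summed level of 4 neutrophil markers reached 86.7 CPM in 1 muscle of libraries 1 to 5 and 91.6 CPM in 1 of libraries 16 to 20, and was at most 19.9 CPM in libraries 6 to 15. The summed fibroblast level was 406 to 691 CPM in libraries 1 to 5 and 148 to 286 CPM in libraries 6 to 10.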
